A study of Homo sapiens with 15 samples.

Results

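The genes of heme biosynthesis were examined in RNA-seq libraries of K562 cells, a chronic myeloid leukemia line carrying BCR-ABL1 that keeps features of the erythroid lineage. The 9 members were chosen by symbol, as the enzymes of the pathway and the mitochondrial carrier that feeds its first step: SLC25A38, ALAS1, ALAS2, ALAD, UROS, UROD, CPOX, PPOX and FECH. They were 9 of the 17769 genes with an identifier in the knockout table and 9 of the 60510 in the resistance table, and all 9 were detected well enough to be tested in both. The pathway step between ALAD and UROS was not analysed here.

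The study asked what the cytosolic chaperones HSP90α and HSP90β each contribute in BCR-ABL1+ cells, and how cells become resistant to HSP90 inhibition. The knockout table held 3 libraries each of the empty vector control (EV, genotype WT), HSP90α-KO and HSP90β-KO cells, all untreated. The growth notes, shared by all samples, say that Cas9 and a guide RNA were brought into K562 cells by lentivirus, and that cells were sorted by fluorescence and selected as single clones. The resistance table held 3 libraries each of PUHr cells, made resistant by long-term exposure to rising amounts of PU-H71, and of the parental control kept in DMSO in the same way. These cells are labelled WT for genotype, which does not cover changes gained during selection, and they were also selected as clones. The labels do not say how many clones stand behind a group, so a difference between groups and a difference between clones cannot be told apart. The study calls its RNA-seq replicates independent, and the labels do not say whether the libraries of a group came from separate cultures, so p-values measure the spread between these libraries, part of which may be technical. The 2 tables were normalised separately, and tests were made within a table.

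Heme is built in mitochondria and cytosol. Glycine enters the mitochondrion, is condensed with succinyl-CoA to 5-aminolevulinic acid, and the product is assembled in the cytosol into a tetrapyrrole ring that returns to the mitochondrion for its last oxidations and for the insertion of iron. The first enzyme comes as the ubiquitous ALAS1, which heme represses, and the erythroid ALAS2, which is driven by erythroid transcription factors and limits heme production in red cell precursors. K562 cells can be induced to make hemoglobin, and the balance of the 2 isozymes is described below without being taken as a measure of their erythroid state.

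Reads on genes per library ranged from 20589103 to 26216730 in EV, 19594381 to 21112564 in HSP90α-KO, 20495247 to 24701713 in HSP90β-KO, 21584840 to 24364722 in the parental cells and 21847942 to 24477692 in PUHr. HSP90AA1, the gene of HSP90α, was at 683 to 716 CPM (reads of a gene scaled to the depth of its library, as deposited by the authors in log2 form) in EV, 88.0 to 92.6 CPM in HSP90α-KO and 1190.4 to 1218 CPM in HSP90β-KO. HSP90AB1, the gene of HSP90β, was at 2782 to 2823 CPM in EV and was lowered less in its own knockout, to 1889 to 1939 CPM. In the resistance table HSP90AA1 was at 1696 to 1721 CPM in the parental cells and 1553 to 1592 CPM in PUHr. The study reports higher HSP90α protein in PUHr after re-treatment with PU-H71, and a copy number gain and a missense variant of HSP90AA1. Those are measures of protein and DNA, unlike the RNA given here. Of 12 markers of erythroid cells, 11 were tested in each table, among them HBG1 and TFRC, while HBE1 had 0 to 4 reads per library in the resistance table. MPO, ELANE and MS4A1, which mark neutrophil precursors and B cells, had 0 reads in every library of that table. In bulk RNA, fewer cells of a type and less RNA per cell cannot be told apart.

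The sequences just before a start site of 4 members are shown because they differ in the letters that erythroid factors are known to read. Of these members, ALAS2 and PPOX fell most in HSP90α-KO, while CPOX and ALAS1 rose there. The sequences were taken from a table of RefSeq promoters (GRCh38.p14), in which 10 start sites of 8 members were matched. The promoter of UROS was not analysed here. The 250 bases before each start were searched on both strands for AGATAA (a site of GATA factors), TGATAA (another), CCACCC (a site of KLF1 and its relatives), TGANTCA (a site of NFE2 and AP-1 factors), GCATGCGC (a site of NRF1) and TATAAA (the TATA box). Capitals mark a match to any of them, in its own orientation or as the reverse complement. The ALAS2 stretch lies at chrX:55030978-55031227 on the minus strand, that of ALAS1 at chr3:52197833-52198082 on the plus strand and that of CPOX at chr3:98593649-98593861 on the minus strand. The 30 bases of PPOX lie at chr1:161166571-161166600 on the plus strand, before its second start site and inside an exon of the gene.
ALAS2: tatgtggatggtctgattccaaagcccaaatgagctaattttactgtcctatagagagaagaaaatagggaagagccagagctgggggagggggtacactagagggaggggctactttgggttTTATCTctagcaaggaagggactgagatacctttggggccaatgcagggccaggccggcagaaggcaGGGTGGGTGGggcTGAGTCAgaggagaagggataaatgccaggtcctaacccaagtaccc
ALAS1: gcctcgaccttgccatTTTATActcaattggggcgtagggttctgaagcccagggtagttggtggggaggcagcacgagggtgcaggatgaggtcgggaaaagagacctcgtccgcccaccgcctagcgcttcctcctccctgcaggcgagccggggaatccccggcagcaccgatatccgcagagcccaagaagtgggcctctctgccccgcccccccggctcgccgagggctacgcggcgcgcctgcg
CPOX: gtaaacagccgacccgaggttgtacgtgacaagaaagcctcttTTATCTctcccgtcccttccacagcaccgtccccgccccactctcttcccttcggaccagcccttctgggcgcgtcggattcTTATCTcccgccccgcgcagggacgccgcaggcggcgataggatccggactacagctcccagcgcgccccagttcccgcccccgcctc
PPOX: agggtgtggcccTTATCTgcacccagcaga

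AGATAA was found before start sites of 3 members. It stood 127 bases before the start of ALAS2, at 207 and 125 bases before that of CPOX and 63 bases before the second start of PPOX, each time on the reverse strand, and 9.2% of 35116 promoters of this length held it. The ALAS2 stretch also held CCACCC at 60 and 56 bases, in overlapping matches on the reverse strand, and TGANTCA at 47 bases before the start. CCACCC was found in 31.3% and TGANTCA in 6.6% of all promoters. CCACCC was further found before start sites of PPOX and SLC25A38, and TATAAA, held by 10.7% of promoters, 234 bases before ALAS1 on the reverse strand. TGATAA and GCATGCGC, held by 6.7% and 2.6%, were not among the letters of any of the 10 windows. These matches describe the letters only.

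In HSP90α-KO, the erythroid isozyme ALAS2 was the member that changed most, at 0.340 of its EV level. PPOX, the enzyme before the last, fell to 0.603 of its EV level. ALAD, FECH and SLC25A38 fell by small amounts, and UROS, CPOX and ALAS1 rose. UROD did not pass the test. In limma, 3 of 9 members were higher and 5 lower at an adjusted p under 0.05, where 27.5% and 26.6% of all tested genes were called in these directions. ALAS2 alone passed the log2 fold change of 1 that marked a changed gene in the study, a rule that called 10.3% of all genes. The libraries of the groups did not overlap for 8 of 9 members, against 57.3% of all genes. The median log2 fold change of the 9 members was -0.11, and that of all tested genes -0.01.

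In HSP90β-KO fewer members passed the test than in HSP90α-KO. FECH, which inserts iron into protoporphyrin, rose to 1.41 times its EV level, CPOX and ALAS1 rose, and ALAS2 fell to 0.744 of its EV level. Thus 3 members were higher and 1 lower, where 17.2% of all genes were called in either direction each. None passed the log2 fold change of 1, past which 4.48% of all genes lay. Libraries did not overlap for 6 members, against 46.6% of all genes, and the median over the members was 0.08 beside 0.00 over all genes.

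The difference between the knockouts was tested in the same fit, since both comparisons share the EV libraries. UROS was higher in HSP90α-KO than in HSP90β-KO, and ALAS2, PPOX, FECH, ALAD and SLC25A38 were lower, so that 6 of 9 members differed where 59.9% of all genes did. ALAS2 differed by more than 1 on the log2 scale, as 12.7% of all genes did with a passed test. Libraries of the 2 knockouts did not overlap for 6 members, against 63.8% of all genes. ALAS1, UROD and CPOX did not pass.

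In PUHr, ALAS2 rose to 2.01 times the parental level and CPOX rose as well, while ALAS1, SLC25A38, ALAD and PPOX fell. UROS, UROD and FECH did not pass. With 2 members higher and 4 lower, the shares stand beside 25.6% and 25.8% of all genes. ALAS2 was again the member past the log2 fold change of 1, which 10.1% of genes passed, and libraries did not overlap for 6 members against 58.5% of all genes. The median over the members was -0.07 beside 0.00 over all genes. With 9 members no test of the list was made, and the account that follows is of single genes.

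**Figure D1:**
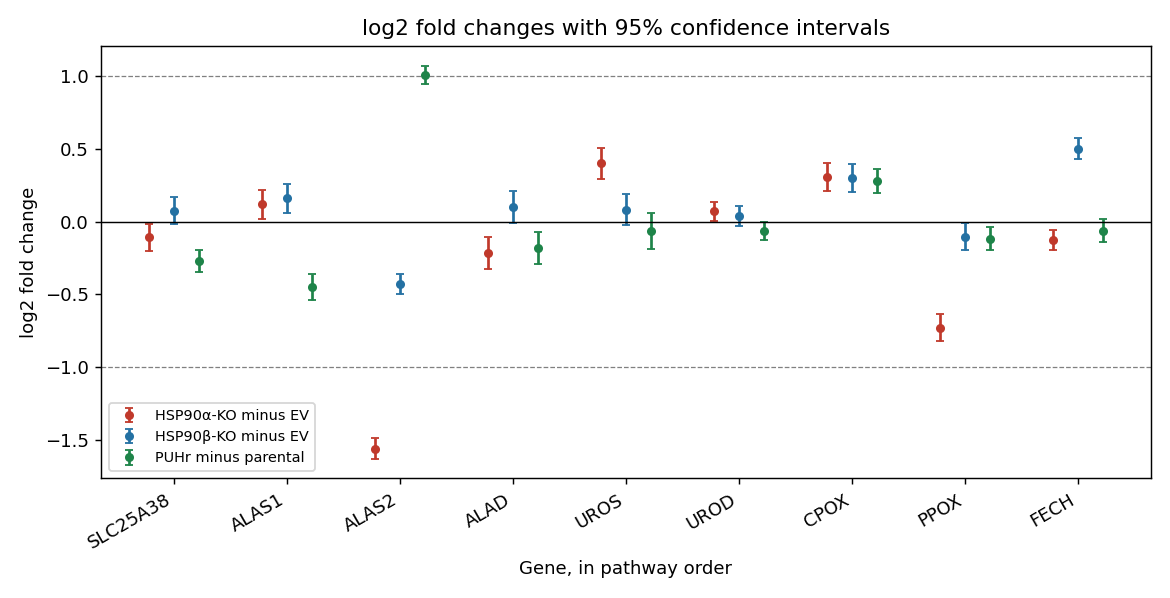
log2 fold changes of the 9 genes in pathway order (x axis) for HSP90α-KO and HSP90β-KO against EV and for PUHr against parental, with 95% confidence intervals from limma as bars; dashed lines mark a log2 fold change of 1 and -1. ALAS2 lies at -1.56, -0.43 and 1.01, and CPOX lies near 0.30 in all 3 comparisons.

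SLC25A38 (ENSG00000144659), on the plus strand of GRCh38 at chr3:39383370-39397351 with 7 exons in its canonical transcript, encodes the carrier that brings glycine into the mitochondrion for heme. It was at 41.7, 44.1 and 41.3 CPM in EV, 38.8, 40.5 and 38.7 CPM in HSP90α-KO, and 43.2, 45.4 and 45.5 CPM in HSP90β-KO. The HSP90α-KO libraries all lay below those of EV, while those of HSP90β-KO overlapped EV. The log2 fold change in HSP90α-KO was -0.11 (SE 0.046, n = 3 against 3, adjusted p = 0.049 in limma), a call that was lost in 14 of 19 alternative settings. Between the knockouts the difference was -0.18 (adjusted p = 0.0012, limma). The parental libraries were at 58.7, 59.6 and 57.7 CPM and those of PUHr at 48.9, 49.5 and 47.6 CPM. The groups were well apart, and SLC25A38 fell by 0.27 on the log2 scale in PUHr (SE 0.036, adjusted p = 1.7e-05 in limma).

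ALAS1 (ENSG00000023330), at chr3:52198086-52214327 on the plus strand with 12 exons, is the housekeeping 5-aminolevulinate synthase. Its libraries were at 34.5, 37.2 and 36.3 CPM in EV, 38.9, 38.2 and 40.2 CPM in HSP90α-KO and 40.1, 38.4 and 42.1 CPM in HSP90β-KO. Every knockout library lay above every EV library. The rise was small, 0.12 in HSP90α-KO (SE 0.049, adjusted p = 0.040) and 0.16 in HSP90β-KO (adjusted p = 0.012) on the log2 scale in limma. The first was lost in 8 and the second in 3 of 19 alternatives, among them the fit without EV replicate 1, where they were 0.09 and 0.13 (adjusted p = 0.16 and 0.069 in limma). The knockouts did not differ in ALAS1 beyond the spread (log2 difference -0.04, 95% interval -0.14 to 0.06). In the resistance table ALAS1 was at 46.6, 46.3 and 49.5 CPM in the parental cells and at 34.7, 34.5 and 35.2 CPM in PUHr. The PUHr libraries were below all parental libraries, and ALAS1 fell by 0.45 on the log2 scale (SE 0.042, adjusted p = 4.2e-07 in limma).

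ALAS2 (ENSG00000158578), at chrX:55009055-55030977 on the minus strand with 11 exons, is the erythroid 5-aminolevulinate synthase. It was at 203, 207 and 204 CPM in EV. In HSP90α-KO it was at 68.4, 69.1 and 70.7 CPM, and in HSP90β-KO at 153, 157 and 146 CPM. The 3 groups did not overlap, and those of HSP90α-KO lay lowest. ALAS2 fell by 1.56 on the log2 scale in HSP90α-KO (SE 0.034, 95% interval -1.63 to -1.49, adjusted p = 5.5e-23, limma). In HSP90β-KO it fell by 0.43 (95% interval -0.50 to -0.36, adjusted p = 9.7e-11, limma), and the knockouts differed by -1.13 (adjusted p = 2.5e-20, limma). PUHr moved the other way. The parental libraries were at 127, 121 and 126 CPM and those of PUHr at 257, 241 and 252 CPM, with no overlap. ALAS2 rose by 1.01 on the log2 scale (SE 0.030, 95% interval 0.94 to 1.07, adjusted p = 1.7e-12, limma). This value lies on the fold threshold, and ALAS2 dropped below it in 5 of 15 alternatives, among them those without parental replicate 2, PUHr replicate 1 and PUHr replicate 3, while its adjusted p stayed at 0.00020 or less in all 15.

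**Figure D2:**
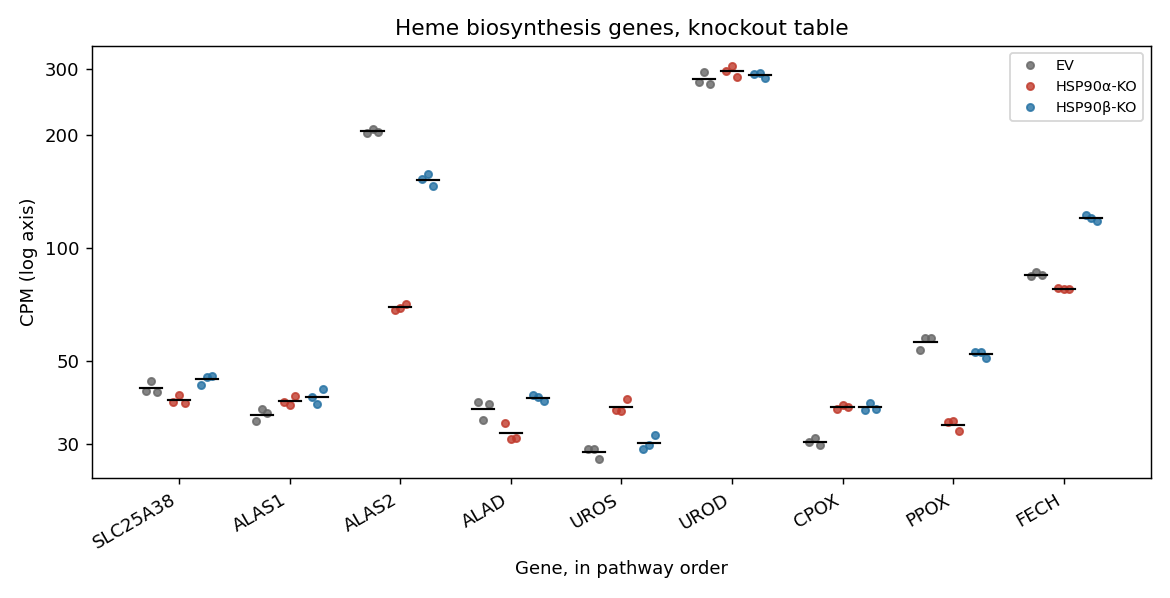
CPM (log axis) of the 9 genes in pathway order in each of the 9 libraries of the knockout table; points are libraries and short lines the group means. ALAS2 is at 68.4 to 70.7 CPM in HSP90α-KO against 203 to 207 in EV, and FECH is highest in HSP90β-KO.

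The ratio of the 2 isozymes was read within each library, where scaling cancels. Between 5.57 and 5.87 ALAS2 reads were counted for each ALAS1 read in EV, 1.76 to 1.81 in HSP90α-KO and 3.47 to 4.09 in HSP90β-KO. In the parental cells there were 2.54 to 2.72 ALAS2 reads for each ALAS1 read, and in PUHr 7.01 to 7.42. On the log2 CPM scale the ratio was 2.50 ± 0.04 in EV, 0.83 ± 0.02 in HSP90α-KO, 1.92 ± 0.12 in HSP90β-KO, 1.39 ± 0.05 in parental cells and 2.84 ± 0.04 in PUHr (SD, n = 3 each). The differences were -1.68 and -0.59 for the knockouts against EV, -1.09 between the knockouts and 1.45 for PUHr. Groups did not overlap in any of the 4 comparisons. Each reached p = 0.1 in an exact two-sided permutation test, which is the smallest p that 3 against 3 libraries allow. Both isozymes contributed in opposite directions in every comparison with a control, ALAS2 with the larger part.

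**Figure D3:**
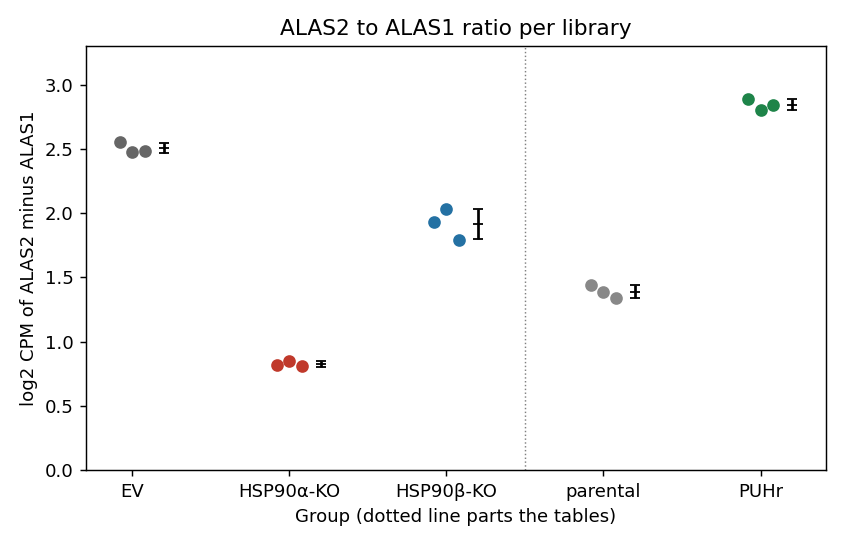
Difference of log2 CPM between ALAS2 and ALAS1 in each library (y axis) by group (x axis); black bars are mean and SD of 3 libraries, and the dotted line parts the 2 tables, which were normalised separately. The ratio is lowest in HSP90α-KO, at 0.83, and highest in PUHr, at 2.84.

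ALAD (ENSG00000148218), at chr9:113386312-113401290 on the minus strand with 12 exons, joins pairs of 5-aminolevulinic acid to porphobilinogen in the cytosol. Its libraries were at 38.8, 34.7 and 38.4 CPM in EV, 34.2, 31.0 and 31.2 CPM in HSP90α-KO and 40.5, 40.0 and 39.2 CPM in HSP90β-KO. The 3 groups did not overlap, although EV replicate 2 stood close to the highest HSP90α-KO library. ALAD fell by 0.21 in HSP90α-KO on the log2 scale (SE 0.052, adjusted p = 0.0012, limma), and the log2 fold change in HSP90β-KO was 0.10 (95% interval -0.01 to 0.21, adjusted p = 0.15, limma). The HSP90β-KO value ranged from 0.05 to 0.13 as 1 library was left out, and it did not pass in any alternative. The knockouts differed by -0.31 (adjusted p = 1.1e-05, limma). In the resistance table the values were 37.2, 33.5 and 35.3 CPM in parental cells and 31.9, 29.6 and 32.1 CPM in PUHr. The lowest parental library was just above the highest of PUHr, and the log2 fold change was -0.18 (adjusted p = 0.0095, limma). That call was lost without parental replicate 1 (adjusted p = 0.060, limma).

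UROS (ENSG00000188690), at chr10:125784980-125823258 on the minus strand with 10 exons, closes the ring to uroporphyrinogen III. Its values were 29.2, 29.2 and 27.4 CPM in EV and 37.0, 36.9 and 39.5 CPM in HSP90α-KO, against 29.2, 29.9 and 31.8 CPM in HSP90β-KO. HSP90α-KO stood above both other groups, which overlapped each other. UROS rose by 0.40 in HSP90α-KO on the log2 scale (SE 0.052, adjusted p = 2.9e-07, limma), and the knockouts differed by 0.32 (adjusted p = 7.8e-06, limma). For HSP90β-KO the value was 0.08 (95% interval -0.02 to 0.19). The PUHr libraries, at 32.7, 35.7 and 31.8 CPM, overlapped the parental ones, at 34.7, 32.8 and 37.4 CPM, with a log2 fold change of -0.07 (95% interval -0.19 to 0.06).

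UROD (ENSG00000126088), at chr1:45010950-45015575 on the plus strand with 10 exons, trims uroporphyrinogen to coproporphyrinogen, the last step in the cytosol. It was the most abundant member, at 277, 295 and 274 CPM in EV, 297, 306 and 285 CPM in HSP90α-KO and 291, 292 and 285 CPM in HSP90β-KO. All 3 groups overlapped. The log2 fold changes were 0.07 in HSP90α-KO (95% interval 0.00 to 0.14, adjusted p = 0.073 in limma) and 0.04 in HSP90β-KO (95% interval -0.03 to 0.10). The HSP90α-KO value passed in limma without EV replicate 2 (0.103, adjusted p = 0.010) and without HSP90α-KO replicate 3 (0.097, adjusted p = 0.014). The parental libraries held 589, 575 and 573 CPM and those of PUHr 581, 531 and 550.2 CPM, which overlapped, with a log2 fold change of -0.07 (adjusted p = 0.074, limma). With each library centred on its median it was -0.11 and passed (adjusted p = 0.0085, limma). It also passed without PUHr replicate 1, at -0.10 (adjusted p = 0.0031, limma). UROD shares 375 exon bases, 9.3% of its exons, with HECTD3 on the opposite strand. The libraries were stranded, but the strand setting of the counting is not given in the sources used here, so reads from these bases are uncertain.

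CPOX (ENSG00000080819), at chr3:98579446-98593648 on the minus strand with 7 exons, makes protoporphyrinogen from coproporphyrinogen in the intermembrane space. It was at 30.4, 31.2 and 29.9 CPM in EV, 37.3, 38.1 and 37.7 CPM in HSP90α-KO and 37.0, 38.7 and 37.3 CPM in HSP90β-KO. Both knockouts lay above EV and overlapped each other. CPOX rose by 0.31 in HSP90α-KO (SE 0.046, adjusted p = 3.7e-06) and by 0.30 in HSP90β-KO (adjusted p = 9.4e-06) on the log2 scale in limma, and the knockouts differed by 0.00 (95% interval -0.09 to 0.10). In PUHr the libraries were at 69.6, 71.3 and 69.1 CPM, above the parental 55.4, 59.7 and 58.2 CPM. There CPOX rose by 0.28 (SE 0.037, adjusted p = 1.7e-05, limma). It was the member that rose in all 3 comparisons with a control, of which the first 2 share the EV libraries. A protein-coding gene without a name shares 163 exon bases with CPOX on the same strand, 5.2% of its exons.

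PPOX (ENSG00000143224), at chr1:161166056-161178013 on the plus strand with 13 exons, oxidises protoporphyrinogen to protoporphyrin at the inner membrane. It was at 53.5, 57.5 and 57.6 CPM in EV, 34.4, 34.7 and 32.5 CPM in HSP90α-KO and 52.9, 52.8 and 51.0 CPM in HSP90β-KO. The HSP90α-KO libraries were far below all others, and those of HSP90β-KO just below EV. PPOX fell by 0.73 in HSP90α-KO on the log2 scale (SE 0.045, adjusted p = 2.3e-13, limma), and the knockouts differed by -0.63 (adjusted p = 3.6e-12, limma). In HSP90β-KO the log2 fold change was -0.10 (95% interval -0.20 to -0.01, adjusted p = 0.079, limma). It passed without EV replicate 1 (adjusted p = 0.034, limma). The parental libraries were at 81.3, 80.3 and 81.8 CPM and those of PUHr at 78.4, 71.8 and 74.3 CPM, without overlap, and the log2 fold change was -0.12 (adjusted p = 0.013, limma). It missed the threshold without parental replicate 3 (adjusted p = 0.0503, limma). PPOX shares 1118 exon bases, 23.7% of its exons, with B4GALT3 on the opposite strand, so part of its reads is uncertain.

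FECH (ENSG00000066926), at chr18:57544377-57586732 on the minus strand with 11 exons, is the ferrochelatase that completes heme. It was at 84.2, 86.0 and 84.6 CPM in EV, 78.4, 77.6 and 77.6 CPM in HSP90α-KO and 122, 119.9 and 118 CPM in HSP90β-KO. The 3 groups stood apart, HSP90α-KO below and HSP90β-KO above EV. FECH fell by 0.13 in HSP90α-KO (SE 0.034, adjusted p = 0.0032) and rose by 0.50 in HSP90β-KO (SE 0.034, 95% interval 0.43 to 0.57, adjusted p = 5.4e-12) on the log2 scale in limma. The knockouts differed by -0.63 (adjusted p = 1.1e-14, limma). It was the member that passed the test in opposite directions in the 2 knockouts. PUHr libraries, at 106, 99.0 and 102 CPM, overlapped the parental ones, at 109, 102 and 110.1 CPM, with a log2 fold change of -0.06 (95% interval -0.14 to 0.02). With each library centred on its median it was -0.11 and passed (adjusted p = 0.032, limma).

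**Figure D4:**
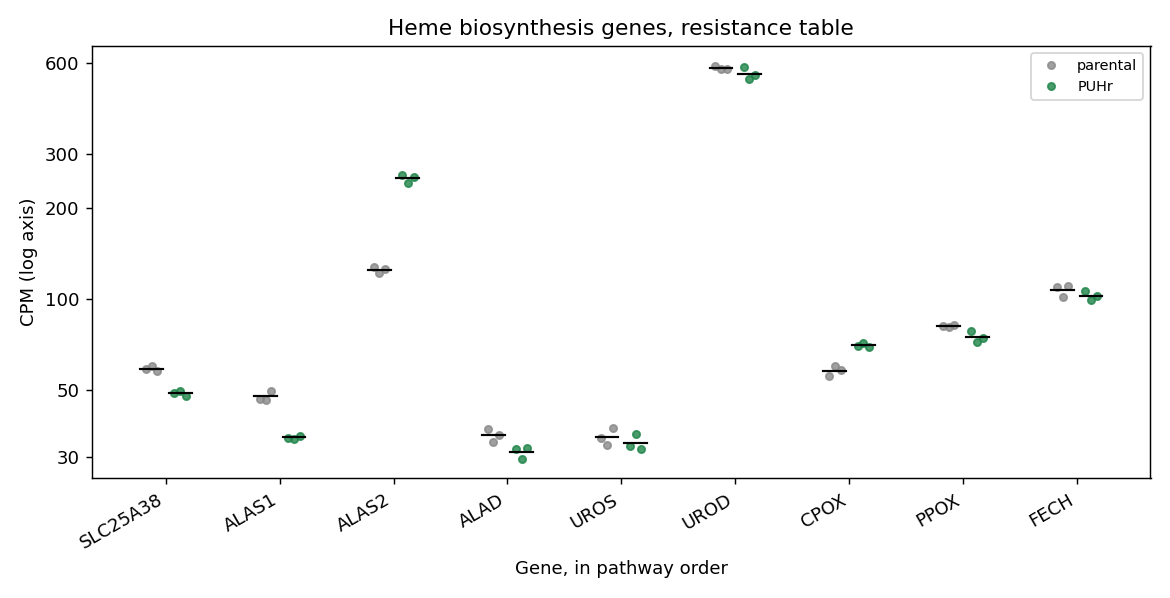
CPM (log axis) of the 9 genes in pathway order in each of the 6 libraries of the resistance table; points are libraries and short lines the group means. ALAS2 is at 241 to 257 CPM in PUHr against 121 to 127 in the parental cells, and ALAS1 is lower in all 3 PUHr libraries.

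Per kb of canonical transcript, UROD and ALAS2 were the highest members in every group. In EV, the level was 236 ± 9.5 CPM per kb for UROD and 105 ± 1.2 for ALAS2, followed by PPOX at 32.4 ± 1.3 (SD, n = 3). UROS at 21.4 ± 0.76 and SLC25A38 at 20.2 ± 0.74 came next, with overlapping libraries. ALAS1 was at 15.2 ± 0.56 CPM per kb, and ALAD, CPOX and FECH, at 11.9 ± 0.72, 11.3 ± 0.25 and 11.1 ± 0.13, overlapped as well. In HSP90α-KO, ALAS2 stood at 35.8 ± 0.61 CPM per kb and UROS at 28.3 ± 1.1, and PPOX at 19.5 ± 0.68 came after them. In PUHr, ALAS2 was at 129 ± 4.2 CPM per kb beside 64.2 ± 1.5 in the parental cells. The summed CPM of all members was 792 to 822 in EV, 653 to 672 in HSP90α-KO and 796 to 814 in HSP90β-KO, and 1110 to 1139 in parental cells and 1164 to 1240 in PUHr. ALAS2 itself went from a mean of 204 CPM in EV to 69.4 in HSP90α-KO, and from 125 in parental cells to 250.3 in PUHr.

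K562 clones can differ in gene dosage, so each member was set beside the tested genes within 5 Mb. In HSP90α-KO the 35 genes around UROS had a median log2 fold change of 0.47, with 32 of them above 0, and UROS itself was at 0.40. Around ALAS2, 34 genes had a median of -0.33, which was -0.22 within 2 Mb and -0.10 within 10 Mb, and ALAS2 was at -1.56, with 8.8% of the 34 lower still. CPOX in HSP90β-KO was at 0.30 beside a median of 0.35 over its 33 neighbours, and that median was 0.16 within 2 Mb and 0.23 within 10 Mb. Its neighbours in HSP90α-KO and PUHr had medians of 0.04 and 0.03, beside 0.31 and 0.28 for CPOX. FECH in HSP90β-KO, at 0.50, stood beside a median of 0.04, and ALAS2 in PUHr, at 1.01, beside 0.06. The part of gene dosage in these values was not tested.

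Of 20 carriers, transporters and partner proteins of mitochondrial heme synthesis, 8 were higher and 9 lower in HSP90α-KO, where 27.5% and 26.6% of all tested genes were called. The median log2 fold change was -0.04. PGRMC1, a heme-binding partner of FECH, fell from 101 ± 2.8 to 45.9 ± 0.075 CPM (log2 fold change -1.13, adjusted p = 1.6e-19, limma), the largest fall, and SLC25A28, mitoferrin-2, had the largest rise (0.53). In HSP90β-KO 3 were higher and 10 lower, where 17.2% of all genes were called in each direction, with a median of -0.08. SLC25A28 had the largest rise again (0.21). ABCB6, a porphyrin transporter, fell by 0.89 on the log2 scale, from 39 to 55 reads per EV library to 21 to 31. In PUHr, 6 were higher and 9 lower (25.6% and 25.8% of all genes, median -0.08), and ABCB6 had the largest rise, 0.58, and TSPO, a porphyrin-binding protein of the outer membrane, the largest fall, -0.88.

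Among genes of heme use, breakdown and export, 12 of 13 were tested in each table. In HSP90α-KO 6 were higher and 2 lower (median log2 fold change 0.13), in HSP90β-KO 1 and 4 (median 0.00) and in PUHr 5 and 3 (median 0.06), beside the same shares of all genes. ABCG2, which exports porphyrins and drugs, was at 4.42 to 6.27 CPM in EV, 0.308 to 0.570 CPM (6 to 11 reads) in HSP90α-KO and 14.0 to 14.6 CPM in HSP90β-KO. The 3 groups were far apart. In HSP90α-KO 2 of the 3 libraries were under the filter on low values, which ABCG2 met through the groups in which it was high. Its fold and test are therefore not given there, and its place among the 2 lower supports nothing. ABCG2 rose by 1.46 on the log2 scale in HSP90β-KO (adjusted p = 1.0e-07 in limma). In PUHr it rose by 1.40, from 19.4 to 21.5 CPM in parental libraries to 54.2 to 56.4 CPM (adjusted p = 9.6e-12, limma). FLVCR2, a transporter related to the heme exporter FLVCR1, is among those counted as higher in HSP90α-KO and in PUHr. It had 2, 3 and 6 reads in EV and 12, 20 and 33 in HSP90α-KO, and 6 to 7 in parental and 11 to 14 in PUHr libraries, and it met the filter on low values only through the group in which it was higher, so its fold and test are not given and its place in the counts supports nothing. FLVCR1 fell most in HSP90β-KO, by 0.40, and SLC48A1, a heme importer of lysosomes, in PUHr, by 0.70.

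Of 8 erythroid transcription factors and cofactors, 5 were higher and 3 lower in HSP90α-KO (median log2 fold change 0.21), 0 and 6 in HSP90β-KO (median -0.23) and 3 and 4 in PUHr (median -0.12). Of all tested genes, 27.5% were higher and 26.6% lower in HSP90α-KO, 17.2% each in HSP90β-KO, and 25.6% and 25.8% in PUHr, and the marker counts stand beside these shares too. LDB1, which bridges GATA1 complexes, rose by 1.08 in HSP90α-KO, and NFE2 fell by 0.65. KLF1 fell by 0.65 in HSP90β-KO. ZFPM1, a GATA1 cofactor, rose by 0.68 in PUHr (SE 0.13) and LDB1 fell by 0.46. The ZFPM1 libraries of PUHr were uneven, at 43.5 ± 12.45 CPM against 26.5 ± 0.97 in parental cells (SD). Of 11 erythroid markers tested, 2 were higher and 8 lower in HSP90α-KO (median -0.63), 0 and 5 in HSP90β-KO (median -0.08) and 4 and 5 in PUHr (median 0.00). The largest fall was that of HBA2 each time, -1.33, -0.81 and -2.15, and the largest rises were those of EPOR in HSP90α-KO (0.41) and GYPB in PUHr (0.97). HBA2 was low in the knockout table, at means of 2.82 CPM in EV, 1.08 in HSP90α-KO and 1.57 in HSP90β-KO. HBA1, the more abundant alpha-globin gene, had log2 fold changes of only -0.31, -0.02 and -0.45, and did not pass in HSP90β-KO. The summed CPM of the markers was 735 to 753 in EV, 649 to 660 in HSP90α-KO and 683 to 698 in HSP90β-KO, and 2826 to 2872 in parental cells and 2168 to 2258 in PUHr. ALAS2 and the sum thus stood lower together in both knockouts and moved apart in PUHr, and the part of the erythroid state in the ALAS2 values was not tested. Of the myeloid markers, 3 of 5 tested were higher and 1 lower in HSP90α-KO, all 5 were lower in HSP90β-KO, and 3 of 4 were lower in PUHr. CSF3R, the receptor of G-CSF, rose by 0.64 in HSP90α-KO and fell by 1.75 in HSP90β-KO, ITGAM fell by 0.27 in HSP90α-KO, and CD33 fell by 0.83 in PUHr.

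Among 11725 genes whose mean log2 CPM reached 1 in both tables, the 3 whose 3 log2 fold changes lay nearest to those of ALAS2 by root mean square difference were GULP1 (0.208), CPQ (0.214) and NDRG1 (0.243). GULP1, an adaptor of engulfment, had log2 fold changes of -1.39, -0.67 and 0.80 in HSP90α-KO, HSP90β-KO and PUHr. CPQ, a carboxypeptidase, had -1.45, -0.11 and 0.85, and NDRG1, a stress-responsive gene, -1.47, -0.22 and 1.36. The likeness is a description over 3 comparisons, of which 2 share the EV libraries.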

How the data were processed

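RNA of K562 cells was sequenced as stranded mRNA libraries with single reads. Per the submitters' processing notes and the study's methods, the authors used trimmed reads, STAR with the hg38 (GRCh38) genome, featureCounts for gene counts and edgeR for normalization. Tool versions and the strand setting are not given in the sources used here. The deposited values are in log2 CPM and hold a prior count of about 2, which the authors added. On the linear scale less the floor they fell on whole multiples of 1 read, worth 0.0381 to 0.0518 CPM, and CPM values in the text are these reads on that scale. Intervals cover spread between libraries. Members had 598 to 14467 reads per library. Rows without an identifier, 30 and 114, held 0.027% to 0.036% of the reads and were left out. Column names of the parental libraries spell the solvent DSMO, read as DMSO.

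Tests covered the 17039 and 16503 genes that reached a log2 CPM of -1 in 3 libraries, with limma 3.58.1 in R 4.3.3 (lmFit, contrasts, eBayes with intensity trend), in 1 fit per table, with Benjamini-Hochberg adjustment over all tested genes at 0.05. The script was tested on simulated data. The members and gene lists were chosen with earlier results of these data known. All 9 members are named, and of each other list the largest rise and fall at an adjusted p under 0.05 in each comparison with a control, with no fold for genes that met the filter only where they were high. Not every such gene is reported here. Genes near ALAS2 in pattern were named because it was the member past the fold threshold. Exons and positions are from GENCODE on GRCh38. Replicate pairs differed by 1.15 to 4.23 times the counting variance. Alternatives were other filters, offsets, scalings and variance models, a replicate block, and fits without each library.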

Additional observations from a re-analysis of the deposited data

Results flagged for a closer look

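The effect of the 2 knockouts on 6 members differed in the test of the difference itself, as HSP90α-KO minus HSP90β-KO on the log2 scale in limma. ALAS2 was lower in HSP90α-KO by -1.13, PPOX by -0.63 (-0.6257) and FECH by -0.63 (-0.6256). ALAD differed by -0.31 and SLC25A38 by -0.18, both lower in HSP90α-KO, and UROS by 0.32, higher in HSP90α-KO. All 3 libraries of one knockout lay on one side of all 3 of the other for each of these genes, as for 63.8% of all tested genes. The same test was passed by 59.9% of all tested genes, so neither count sets the members apart. Groups of 3 libraries were too small to look for a library far from the others.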

How the results depend on the processing

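Over 36 values, the 9 members in 4 comparisons, 648 values were computed under the alternatives, of which 599 kept the direction and the side of the threshold, and 23 of the 36 values did so in every alternative. In HSP90β-KO 2 members were lower, with PPOX added, under median centring, without EV replicate 1 and with only the 6 libraries compared. Between the knockouts 2 members were higher under median centring, with UROD added. In PUHr 2 members were lower with no filter on low values, where 60510 genes were tested, and with no intensity trend, and 0 members passed the log2 fold change of 1 with log2(CPM + 5), under median centring and without 1 of 3 single libraries. Median centring also gave 6 members lower in PUHr, with UROD (adjusted p = 0.0085, limma) and FECH (adjusted p = 0.032, limma) added. Leaving out 1 library gave 2 to 4 members higher and 4 to 5 lower in HSP90α-KO, 2 to 3 and 1 to 2 in HSP90β-KO, and 2 higher, 3 to 5 lower and 0 to 1 past the fold in PUHr. Directions of small values turned: UROD was -0.0097 in HSP90α-KO, -0.0467 between the knockouts and 0.0208 in PUHr with quantile normalization and -0.0052 in HSP90β-KO with median centring, ALAS1 was 0.0037 between the knockouts with median centring, and CPOX between the knockouts ranged from -0.0096 to 0.0228 as 1 library was left out. The cause was not tested. With windows of 2 Mb or 10 Mb, 1 member and not 2 had a neighbour median beyond 0.25 in HSP90α-KO, and 0 and not 1 in HSP90β-KO. Median centring moved the balance of all calls, to 2134 higher and 3673 lower from 2938 and 2926 in HSP90β-KO, to 3514 and 5203 from 4221 and 4259 in PUHr, and to 5746 and 4432 from 5128 and 5073 between the knockouts. Same-numbered libraries did not deviate together (correlations -0.048 to 0.045), which cannot show whether they were grown or prepared together. With a replicate block 7, 4, 6 and 7 members passed in HSP90α-KO, HSP90β-KO, between the knockouts and in PUHr, where 8, 4, 6 and 6 passed without it. SLC25A38 in HSP90α-KO was lost (adjusted p = 0.053) and UROD in PUHr gained (adjusted p = 0.026). Members had at least 598 reads per library, and the share of counting error in single differences was not computed.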

Other observations

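Of 15 genes of iron-sulfur cluster assembly, which supplies the cluster of FECH, 8 were higher and 2 lower in HSP90α-KO, with a median log2 fold change of 0.18 (27.5% and 26.6% of all tested genes were called in these directions), and 3 were higher and 5 lower in HSP90β-KO, with a median of -0.10 (17.2% of all genes in each direction). The largest fitted rise in both was that of FDX2, at 1 to 3 reads per EV library against 4 to 11 in HSP90α-KO and 5 to 10 in HSP90β-KO. It met the filter on low values through the knockout libraries, so no fold is given and its place in the counts supports nothing. ISCA1 had the largest fall in HSP90α-KO (-0.26) and GLRX5, whose loss impairs heme synthesis in red cells, in HSP90β-KO (-0.29). In PUHr 14 were tested, 6 were higher and 3 lower, with a median of 0.05 (25.6% and 25.8% of all genes). FDXR, the reductase of the ferredoxins, rose by 0.51 and HSCB, a co-chaperone of the assembly, fell by 0.51.

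Of the megakaryocyte markers, 2 of 8 could be tested in the knockout table, as could 5 for PUHr. One of 2 was lower in HSP90α-KO, 2 were lower in HSP90β-KO, and in PUHr 3 were higher and 1 lower. Of all tested genes, 27.5% were higher and 26.6% lower in HSP90α-KO, and 17.2% each in HSP90β-KO. For PUHr the shares were 25.6% and 25.8%, and the lymphoid counts below stand beside the same shares. GP1BA, a platelet adhesion receptor, had the largest fall in both knockouts (-0.39 and -0.59). Of the 3 higher in PUHr, VWF (2 to 6 reads per parental library and 27 to 35 in PUHr) and PPBP (2 to 10 and 28 to 32 reads) were tested because the PUHr libraries met the filter on low values. No fold is given for these genes and they support nothing. ITGB3, at 21 to 25 and 43 to 50 reads, met it in both groups and rose by 0.89 on the log2 scale. ITGA2B had the largest fall, -1.11. Of the lymphoid markers, 0 were higher and 2 of 4 lower in HSP90α-KO, 1 was higher in HSP90β-KO, and 2 of 3 were lower in PUHr. One of the 2 in HSP90α-KO was CD3E, at 66 to 88 reads per EV library and 3 to 12 in HSP90α-KO, which met the filter on low values through the groups in which it was high, so no fold is given and it supports nothing. CD3D, another chain of the T cell receptor complex, rose by 1.26 in HSP90β-KO. The summed CPM of these lymphoid markers was at most 23.8 in any library.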
